A study of Homo sapiens with 18 samples.

Results

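The comparison described here sets GIST-T1 cells treated with JQ1 for 24 h against GIST-T1 cells treated with imatinib for 24 h, across all genes. It takes 6 of the 18 RNA libraries of the study, 3 for each drug, and both drugs were given at 500 nM. GIST-T1 is a cell line from a human gastrointestinal stromal tumour (GIST) that depends on the receptor KIT. The study's other 12 libraries are cells given both drugs for 24 h, JQ1 for 6 h, imatinib for 6 h, and DMSO, the vehicle, in 3 libraries each. The 4 single-drug groups also test whether the difference between the drugs at 24 h was that at 6 h. All groups are one cell line, and the labels do not say whether libraries of a group came from separate cultures, so p-values measure the spread between these libraries, which may be technical.

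KIT is a receptor tyrosine kinase that in most GIST carries an activating mutation and signals through the RAS, RAF, MEK and ERK kinases and through PI3K and AKT. Imatinib blocks the kinase activity of KIT, so its first effect is on signalling downstream of the receptor. JQ1 displaces the BET bromodomain proteins from acetylated chromatin, so its first effect is on transcription, above all of genes with large enhancers. ETV1, FOXF1 and HAND1 are transcription factors of the GIST lineage, and ANO1 is the chloride channel used as a diagnostic marker of the tumour.

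The values are FPKM, fragments scaled by transcript length and library size, as the authors deposited them. RNA was taken by cell count and spiked with ERCC control transcripts, so the values are read as relative to cell number. Fewer cells of a kind and less RNA per cell cannot be told apart in them. Summed FPKM averaged 627205 ± 55556 in JQ1 24 h libraries and 480241 ± 34281 in imatinib 24 h libraries (SD, n = 3 each), a ratio of 1.31 (exact two-sided permutation p = 0.1, the smallest that 3 against 3 allows). The 3 rows of MIR1244 held 26.5% to 31.5% of the JQ1 totals and 18.5% to 23.2% of the imatinib totals, and without them the ratio was 1.17 (exact p = 0.2). Libraries of a group correlated at Pearson r of 0.985 to 0.989 for JQ1 and 0.984 to 0.985 for imatinib on the log2 scale, against 0.939 to 0.945 between the drugs. The GIST markers were expressed in every library, KIT at 37.5 to 155 FPKM. Defining markers of other cell types were low. All 9 epithelial, 7 endothelial and 5 glial markers stayed under 1 FPKM in the 6 libraries, and the 8 leukocyte markers summed to 7.41 to 10.9 FPKM with JQ1 and 5.53 to 5.95 FPKM with imatinib. Of these markers, CORO1A, an actin-binding protein of leukocytes that stood at 46.2 ± 9.65 FPKM in the DMSO libraries, was higher with JQ1 (6.34 against 1.08 FPKM), and its part in other results was not tested.

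At 24 h, 459 of 12771 tested genes were higher in JQ1 than in imatinib cells (3.59%) and 623 were lower (4.88%), 8.47% in all. Counts of called list members below are to be read beside these shares. The difference is that of log2(FPKM + 1), JQ1 minus imatinib, tested with limma, and a call is an adjusted p below 0.05 with a difference of at least 1 in size. An unadjusted p below 0.05 was found for 5799 genes. The libraries of the 2 drugs did not overlap for 4220 genes with JQ1 higher (33%) and for 3519 with JQ1 lower (27.6%), most of them by less than the fold a call needs. The median difference of all tested genes was 0.04 on the deposited scale. Each drug group lay below the same 3 DMSO libraries, by a median log2 difference of -1.492 for JQ1 and -1.503 for imatinib. With each library scaled to one total, the median was -0.29 and the calls were 240 higher and 1584 lower. Without the MIR1244 rows in that total it was -0.14, with 319 higher and 1124 lower.

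**Figure D1:**
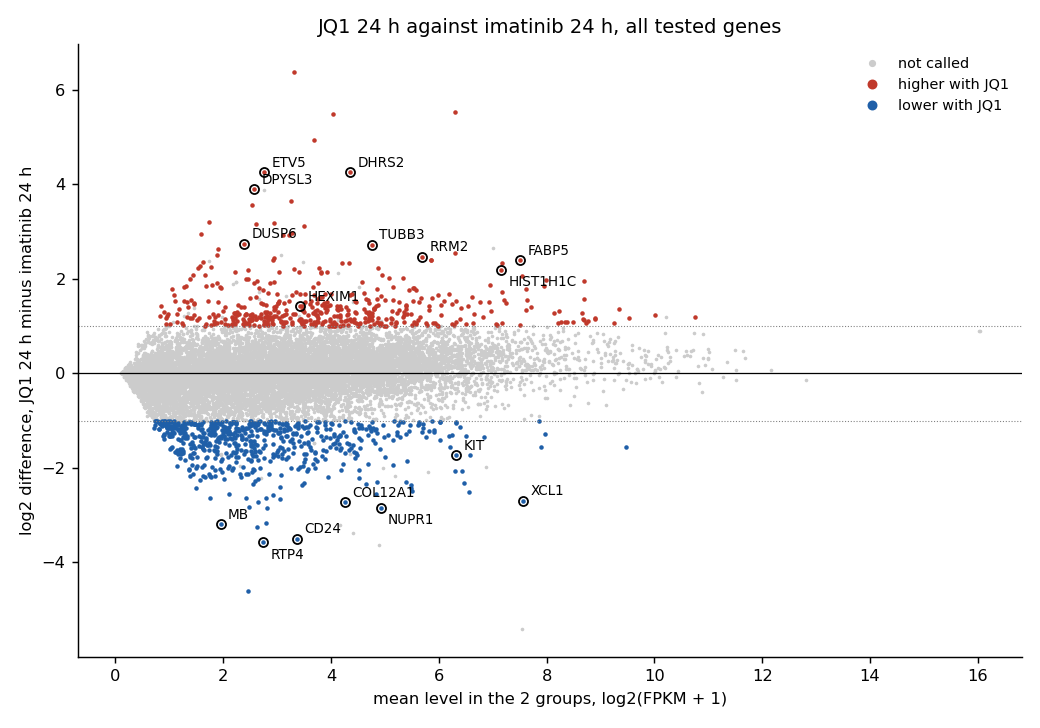
Each point is 1 of the 12771 tested genes: the horizontal axis is its mean level in the JQ1 24 h and imatinib 24 h groups in log2(FPKM + 1), the vertical axis the log2 difference, JQ1 minus imatinib. The 459 genes called higher and 623 called lower are coloured, named genes are ringed, and ETV5 (4.26) and RTP4 (-3.58) stand at the 2 ends among those named.

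KIT itself, with which the comparison begins, was lower with the chromatin drug than with the kinase inhibitor. It had 37.5, 42.4 and 49.3 FPKM in the JQ1 24 h libraries, against 136, 155 and 142 FPKM in the imatinib 24 h libraries. Every JQ1 library lay below every imatinib library, and all 6 lay below DMSO, where KIT averaged 644 ± 125 FPKM (SD, n = 3). The difference was -1.73 ± 0.18 (SE), a 3.35-fold lower mean (limma adjusted p = 6.49e-08), and only 1.08% of tested genes had a lower one. In cells given both drugs KIT averaged 16.3 ± 3.39 FPKM.

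The lineage factors did not move together. ETV1 had 24.3, 27.4 and 31.1 FPKM with JQ1, against 60.7, 71.0 and 64.1 FPKM with imatinib, a difference of -1.22 ± 0.18 (limma adjusted p = 9.41e-06). ANO1 had 32.6, 38.4 and 45.1 FPKM with JQ1, against 88.9, 92.7 and 86.3 FPKM with imatinib, a difference of -1.20 ± 0.18 (limma adjusted p = 1.94e-05). For both, the JQ1 libraries lay wholly below the imatinib ones. HAND1 had 41.3, 46.1 and 52.7 FPKM with JQ1, against 77.7, 79.8 and 77.0 FPKM with imatinib. Its groups also did not overlap, but the difference of -0.74 ± 0.20 did not reach the fold of a call, which it did when libraries were scaled to one total (-1.12). FOXF1 overlapped between the drugs, at 114, 132 and 149.6 FPKM with JQ1 and 142, 153 and 142 FPKM with imatinib, and its difference of -0.15 ± 0.20 was not called (limma adjusted p = 0.595). Over the list of GIST lineage and KIT enhancer genes, 1 of 17 tested members was higher and 4 were lower with JQ1, with a median of -0.45 against 0.04 for all genes. With libraries scaled to one total, 0 were higher and 7 were lower, and 0 and 6 without the MIR1244 rows in that total. Of all 12771 tested genes, 1584 were lower on the first of these scales and 1124 on the second. The fourth lower member was PDGFRA, the sister receptor mutated in a minority of GIST, at 17.5 ± 2.43 FPKM with JQ1 and 39.7 ± 2.59 FPKM with imatinib. The higher one was PLAT, the tissue plasminogen activator, at 640.4 ± 94.9 FPKM with JQ1 and 295 ± 10.9 FPKM with imatinib. The difference of PLAT was 1.11, and 0.996 without JQ1 replicate 3 and 0.72 with libraries scaled to one total, neither of them a call.

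Several other receptor kinases were lower with JQ1 too. Of 25 tested receptor tyrosine kinases and ligands, 0 were higher and 8 were lower with JQ1, KIT and PDGFRA among them, and the list's median was -0.51. The other 6 were ERBB3 (-1.85), DDR1 (-1.56), PDGFRB (-1.39), EPHB2 (-1.18), DDR2 (-1.17) and TYRO3 (-1.11). The share over all tested genes was 3.59% higher and 4.88% lower. ERBB3, a receptor of neuregulins, averaged 6.09 ± 1.16 FPKM with JQ1 and 24.4 ± 1.74 FPKM with imatinib. DDR1, a collagen receptor, averaged 6.17 ± 1.48 FPKM with JQ1 and 19.9 ± 0.218 FPKM with imatinib. PDGFRB had 1.31 ± 0.289 FPKM with JQ1 and 5.02 ± 0.0711 FPKM with imatinib.

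**Figure D2:**
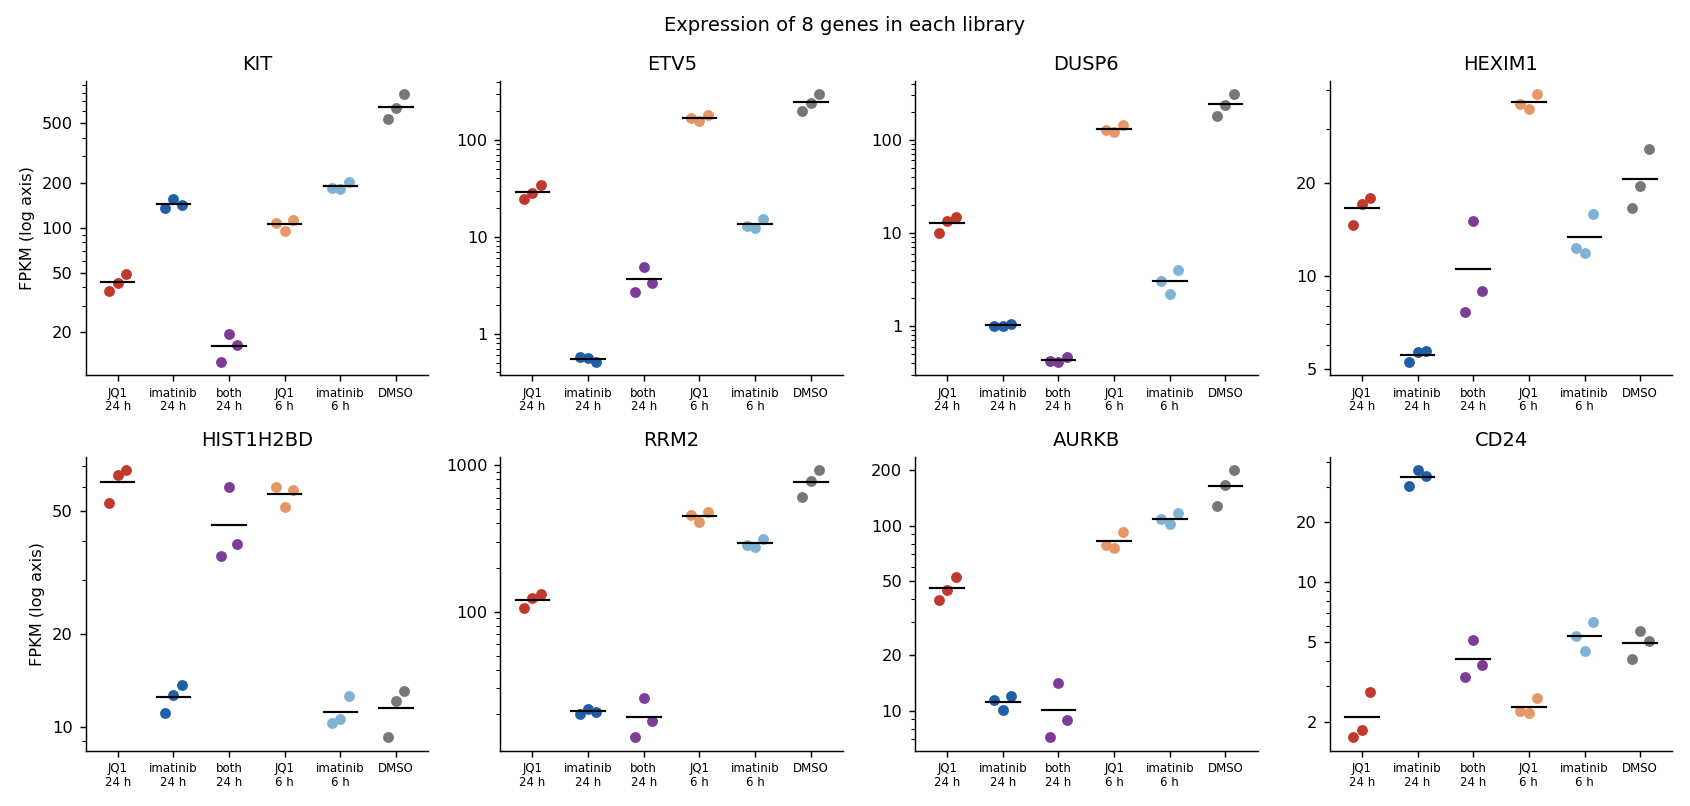
FPKM of 8 genes on a log axis in each library of the 6 groups, with bars at the group means. KIT (43.1 against 145 FPKM) and CD24 were lower in JQ1 24 h than in imatinib 24 h libraries, the other 6 genes higher, and in JQ1 cells DUSP6 averaged 12.6 FPKM at 24 h and 130.3 FPKM at 6 h.

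Several transcripts known to depend on ERK signalling were higher with JQ1. ETV5, an ETS transcription factor induced by ERK, led all named genes with 24.5, 28.3 and 33.9 FPKM in JQ1 24 h libraries, against 0.575, 0.556 and 0.516 FPKM in imatinib 24 h libraries. The groups lay far apart, with a mean 52.6 times as high with JQ1, and the difference was 4.26 ± 0.18 (limma adjusted p = 3.05e-13). DUSP6, the phosphatase that removes phosphate from ERK, had 9.96, 13.3 and 14.7 FPKM with JQ1, against 1.01, 1 and 1.05 FPKM with imatinib, a difference of 2.74 ± 0.19 (limma adjusted p = 1.7e-10). SPRY4, a Sprouty inhibitor of receptor signalling, had 8.84, 10.9 and 12.9 FPKM with JQ1, against 2.15, 2.51 and 2.40 FPKM with imatinib, a difference of 1.81 ± 0.17. JQ1 cells were still below DMSO in all 3, where ETV5 averaged 246 ± 47.6, DUSP6 242 ± 62.4 and SPRY4 212 ± 45.0 FPKM.

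The list of ERK pathway output was mixed all the same. Of 17 tested members, 6 were higher with JQ1 (ETV5, DUSP6, SPRY4, DUSP5, ETV4 and SPRY2), 1 was lower and the median was 0.18. The lower one was CCND1, cyclin D1, which drives the entry into the cell cycle. It had 3.47, 4.58 and 4.81 FPKM with JQ1, against 12.4, 12.4 and 12.3 FPKM with imatinib, a difference of -1.35 ± 0.18 (limma adjusted p = 2.46e-06). Both groups lay below DMSO, at 73.9 ± 17.5 FPKM. SPRY1, with 35.9 FPKM on average with JQ1 and 39.9 FPKM with imatinib, and PHLDA1, with 23.3 and 21.3 FPKM in that order of drugs, were not called. Of 13 tested immediate early genes, 3 were higher (EGR1, IER5 and JUN) and 1 was lower (KLF10). EGR1, a zinc finger factor, averaged 5.6 ± 1.68 FPKM with JQ1 and 0.522 ± 0.0449 FPKM with imatinib. JUN averaged 12.2 ± 1.92 FPKM with JQ1 and 5.12 ± 0.153 FPKM with imatinib, a difference of 1.09 that fell to 0.98 without JQ1 replicate 3 and to 0.80 with libraries scaled to one total, both short of a call. KLF10, a target of TGF-beta signalling, averaged 8.84 ± 0.892 FPKM with JQ1 and 24.5 ± 1.86 FPKM with imatinib.

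MYC was at a few FPKM or less in both groups. Its values were 0.481, 0.580 and 0.869 FPKM with JQ1, against 2.17, 2.02 and 2.07 FPKM with imatinib, so that every JQ1 library was lower. The mean was 3.24-fold lower with JQ1, but the difference of log2(FPKM + 1), -0.92 ± 0.13 (limma adjusted p = 1.12e-05), missed the fold of a call. MYC was called with 0.1 or 0.01 FPKM added in place of 1, and without JQ1 replicate 3 (-1.01). It was also called with libraries scaled by the median of gene ratios (-1.06) or to one total (-1.43). Of 12 tested genes of the MYC, MAX and MXD network, 1 was higher, MXD3, a partner of MAX that opposes MYC, and 0 were lower.

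FOXO factors switch on target genes when AKT signalling stops, and some genes listed as their targets were lower with JQ1 than with imatinib. Of 23 tested FOXO targets and atrophy type genes, 1 was higher and 4 were lower, with a median of -0.17. With libraries scaled to one total 7 were lower, and 6 without the MIR1244 rows in that total. The share over all tested genes was 3.59% higher and 4.88% lower on the deposited scale. On the 2 rescalings 1584 and 1124 of all 12771 were lower. FBXO32, the ubiquitin ligase atrogin-1, had 2.03, 2.21 and 2.75 FPKM with JQ1, against 10.4, 11.2 and 10.6 FPKM with imatinib, a difference of -1.82 ± 0.14 (limma adjusted p = 1.25e-09). Its DMSO level was 0.942 ± 0.221 FPKM, below every 24 h library of the 2 drugs. In the JQ1 6 h libraries FBXO32 averaged 0.249 ± 0.0457 FPKM, below DMSO. The other lower members were ERBB3, TNFSF10 (the death ligand TRAIL, -1.33) and PIK3IP1 (an inhibitor of PI3K, -1.18), and the higher one was GADD45A (a stress gene, 1.53). Unlike FBXO32, none of these was called higher with imatinib than in DMSO. TNFSF10 averaged 142 FPKM with imatinib and 530 FPKM in DMSO, and GADD45A 3.83 and 15.2 FPKM. ERBB3 averaged 24.4 and 26.9 FPKM and PIK3IP1 5.09 and 4.73 FPKM in that order. Of 13 tested BCL2 family genes 1 was higher and 0 were lower, and with libraries scaled to one total 1 was higher and 3 were lower. The higher one was PMAIP1, which encodes the death protein NOXA, at 1.95 ± 0.278 FPKM with JQ1 and 0.266 ± 0.0376 FPKM with imatinib. Both groups lay below DMSO, at 10.5 ± 1.62 FPKM. BCL2L11, which encodes the death protein BIM, overlapped between the drugs, with 4.60, 5.17 and 6.00 FPKM for JQ1 and 4.61, 5.07 and 4.97 FPKM for imatinib (difference 0.08 ± 0.17, limma adjusted p = 0.739).

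Of 14 tested markers known to answer BET inhibitors, 9 were higher with JQ1 and 1 was lower, with a median of 1.25. All 6 histone genes among them were higher, and 5 of these are also in the histone list below. Of the 8 other markers 3 were higher (HEXIM1, SERPINI1 and SAT1), ZMYND8 was lower, and ZCCHC24 (-0.09), ARRDC4 (-0.31), TXNIP (-0.13) and HMOX1 (-0.30) were not called. HEXIM1, which holds the elongation kinase P-TEFb inactive and is used as a marker of BET inhibition, had 14.6, 17.2 and 17.9 FPKM with JQ1, against 5.29, 5.70 and 5.73 FPKM with imatinib, a difference of 1.41 ± 0.20 (limma adjusted p = 5.76e-06). Every JQ1 library lay above every imatinib library, but the JQ1 mean was not above that of DMSO (20.7 ± 4.72 FPKM). SERPINI1, neuroserpin, had 54.7, 59.7 and 61.8 FPKM with JQ1, against 25.2, 28.8 and 27.9 FPKM with imatinib, both above DMSO at 13.8 ± 3.78 FPKM. Its difference of 1.08 ± 0.19 was 0.71, short of a call, with libraries scaled to one total. ZMYND8, a bromodomain protein, was the lower member, at 6.75 ± 1.03 FPKM with JQ1 and 24.9 ± 1.49 FPKM with imatinib. Of 18 tested genes for BET proteins and P-TEFb, HEXIM1 was the only one called.

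Of the 33 lists, the histone genes had the highest median, 1.51. Of 27 tested replication-dependent histone genes, 18 were higher with JQ1 and 0 were lower. HIST1H2BD had 53.2, 65.7 and 67.9 FPKM with JQ1, against 11.1, 12.7 and 13.7 FPKM with imatinib, a difference of 2.22 ± 0.18 (limma adjusted p = 3.19e-09). The imatinib libraries were near the DMSO mean of 11.5 ± 1.99 FPKM, and the JQ1 libraries lay well above it. HIST1H1C, a linker histone, had 272, 308 and 332 FPKM with JQ1, against 62.6, 67.6 and 66.0 FPKM with imatinib, a difference of 2.20 ± 0.19 (limma adjusted p = 6.65e-09). HIST1H3D, an H3 gene, averaged 6.47 ± 0.610 FPKM with JQ1 and 0.570 ± 0.216 FPKM with imatinib. HIST2H2AA3 and HIST2H2AA4, near-identical copies that share reads, each averaged 132 FPKM with JQ1 and 24.1 and 24.2 FPKM with imatinib. Most mRNAs of this class lack a poly(A) tail, and the libraries were made from poly(A) RNA, so the values cover the tailed part of these transcripts, and whether that part differed between the drugs was not tested. Histone genes also resemble one another, and reads shared among copies could be split by the counting.

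The promoters of these 2 histone genes are shown because the CCAAT box, a binding motif of the factor NF-Y, was frequent on the side that was higher with JQ1. Windows run from 250 bases before to 50 bases after the gene start (RefSeq, GRCh38.p14), written 5′ to 3′ on the gene's strand, with the motif in capitals. For HIST1H2BD the window is chr6:26157871-26158170 on the plus strand, with CCAATCA starting at position -73 from the gene start. For HIST1H1C it is chr6:26056421-26056720 on the minus strand, with CCAATCA at position -57.
HIST1H2BD: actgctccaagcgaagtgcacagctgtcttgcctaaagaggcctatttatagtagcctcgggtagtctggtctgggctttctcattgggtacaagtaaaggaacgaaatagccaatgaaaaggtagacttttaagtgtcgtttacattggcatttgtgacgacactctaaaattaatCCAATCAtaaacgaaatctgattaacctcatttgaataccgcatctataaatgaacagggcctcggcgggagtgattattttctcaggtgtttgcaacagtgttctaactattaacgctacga
HIST1H1C: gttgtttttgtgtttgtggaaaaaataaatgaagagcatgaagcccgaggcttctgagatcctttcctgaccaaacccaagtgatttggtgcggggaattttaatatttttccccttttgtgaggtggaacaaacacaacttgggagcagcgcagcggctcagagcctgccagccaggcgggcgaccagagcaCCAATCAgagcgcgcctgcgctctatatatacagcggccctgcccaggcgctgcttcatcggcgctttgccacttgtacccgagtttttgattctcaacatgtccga

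In all, 7 motifs were searched on both strands in the windows of the 10005 tested genes that matched. CCAATCA was in 22.5% of the 355 windows of genes higher with JQ1, in 4.04% of the 445 windows of genes lower with JQ1 and in 9.69% of all. Among the histone list it was in 69.6% of 23 windows. The E2F motif TTTCCCGC was in 5.92% of higher, 1.12% of lower and 2.59% of all windows. TGANTCA, the AP-1 motif, ran the other way at 0.563%, 6.07% and 4.13% in that order. CCGGAAG, an ETS motif, was in 11.3% of higher, 4.49% of lower and 19.6% of all windows. CACGTG, the E-box, was in 8.45%, 7.42% and 10.2%, TGACGTCA, the CRE, in 4.79%, 1.35% and 3.46%, and GTAAACA, the FOXO motif, in 1.13%, 3.15% and 2.19% of the windows in that order. No motif is contained in another, and a match describes letters in a window, not binding.

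Many cell cycle genes were higher with JQ1 than with imatinib. Of 38 tested DNA replication and E2F targets, 18 were higher and 0 were lower, with a median of 0.95. RRM2, a subunit of the ribonucleotide reductase that makes DNA precursors, had 105, 124 and 132 FPKM with JQ1, against 20.2, 21.7 and 20.7 FPKM with imatinib, a difference of 2.47 ± 0.19 (limma adjusted p = 1.31e-09). PCNA, the sliding clamp of DNA polymerase, had 216, 239 and 253 FPKM with JQ1, against 61.0, 68.4 and 62.1 FPKM with imatinib, a difference of 1.87 ± 0.19 (limma adjusted p = 5.14e-08). The groups lay apart for both genes, whose DMSO means were 771 ± 159 and 681 ± 124 FPKM. TYMS, thymidylate synthase, and CDC6, which loads the replicative helicase, differed by 1.77 and 1.68.

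Of 30 tested mitosis genes, 22 were higher with JQ1 and 0 were lower, with a median of 1.31. AURKB, the Aurora B kinase, had 39.9, 45.0 and 52.8 FPKM with JQ1, against 11.4, 10.1 and 12 FPKM with imatinib, a difference of 1.94 ± 0.20 (limma adjusted p = 8.51e-08). CDC20, which activates the anaphase-promoting complex, averaged 85.9 ± 11.6 FPKM with JQ1 and 23.6 ± 0.682 FPKM with imatinib. CDK1 averaged 129 ± 7.52 FPKM with JQ1 and 39.7 ± 2.36 FPKM with imatinib. The list as a whole had geometric mean levels of 35.7, 39.4 and 42.9 FPKM in the JQ1 24 h libraries, against 15.2, 15.9 and 16.1 FPKM in the imatinib 24 h libraries, and 111 to 165 FPKM in DMSO. With libraries scaled to one total, 15 mitosis genes and 9 replication genes were higher and 0 were lower.

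Among cyclins, CDKs and CDK inhibitors, 3 of 17 tested members were higher and 1, CCND1, was lower, and without the unnumbered JQ1 library 5 were higher. CCNE2, cyclin E2, had 11.8 ± 0.602 FPKM with JQ1 and 2.92 ± 0.306 FPKM with imatinib. The other 2 higher members were the inhibitors CDKN2D (p19, 7.49 ± 1.07 FPKM with JQ1 and 2.20 ± 0.356 FPKM with imatinib) and CDKN1A (p21, 2.03 ± 0.277 and 0.275 ± 0.0548 FPKM in that order of drugs).

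Promoters of PCNA and of the mitotic spindle gene DLGAP5 (27.8 ± 1.96 FPKM with JQ1, 7.97 ± 0.594 FPKM with imatinib) are given to show the E2F motif and the CCAAT box in cell cycle genes. The PCNA window is chr20:5126573-5126872 on the minus strand, with the E2F motif on its other strand at position -59. The DLGAP5 window is chr14:55191536-55191835 on the minus strand, with CCAATCA at position -22. The E2F motif was in 30.3% of the 33 windows of the replication list.
PCNA: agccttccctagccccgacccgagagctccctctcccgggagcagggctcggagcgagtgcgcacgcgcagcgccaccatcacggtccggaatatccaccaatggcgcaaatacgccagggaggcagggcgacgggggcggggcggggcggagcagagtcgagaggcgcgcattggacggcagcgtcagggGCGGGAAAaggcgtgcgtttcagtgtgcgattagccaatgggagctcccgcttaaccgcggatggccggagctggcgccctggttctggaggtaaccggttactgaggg
DLGAP5: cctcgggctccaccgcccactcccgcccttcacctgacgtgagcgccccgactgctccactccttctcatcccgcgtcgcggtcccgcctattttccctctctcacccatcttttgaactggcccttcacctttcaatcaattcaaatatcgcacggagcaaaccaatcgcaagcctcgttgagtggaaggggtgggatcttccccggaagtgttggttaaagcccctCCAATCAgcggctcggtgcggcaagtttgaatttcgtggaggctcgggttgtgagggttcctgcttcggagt

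**Figure D3:**
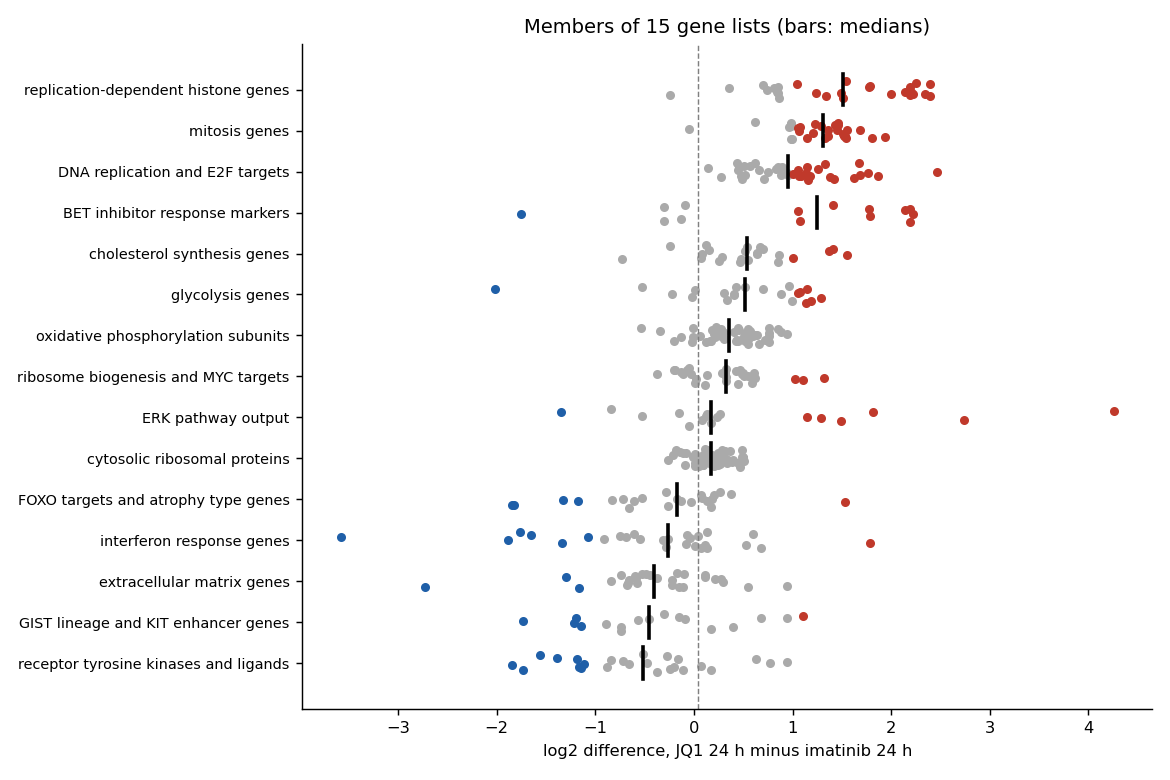
Log2 differences, JQ1 24 h minus imatinib 24 h, of the tested members of 15 gene lists, with genes called higher in red, called lower in blue and the rest in grey. Black bars mark the medians, from 1.51 for replication-dependent histones to -0.51 for receptor tyrosine kinases, and the dashed line is the median of all tested genes, 0.04.

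Whether the drugs differed at 24 h as they did at 6 h was tested as the difference of the 2 contrasts. It was above 0 for 986 genes (7.72%) and below 0 for 191 (1.5%), 9.22% in all by the same rule of a call, with a median of 0.34, since JQ1 cells lay below imatinib cells at 6 h by a median of -0.30. The split depends on the scale. With libraries scaled by the median of gene ratios it was 325 above and 502 below, scaled to one total 314 and 650, and without MIR1244 rows in the total 372 and 533.

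The mitosis list changed sides. Its median was 1.31 at 24 h and -0.72 at 6 h, with 29 of 30 members above 0 at 24 h and 0 of 30 at 6 h, against 6878 and 2949 of the 12771 tested genes. The difference between the times was called for 29 of 30 members, all upward, and for 29 under each of the 3 rescalings. FOXM1 was the exception, and it was also the 1 member below 0 at 24 h (-0.05). The list's levels at 6 h were 62.1, 56.0 and 65.3 FPKM in JQ1 6 h libraries and 99.9, 95.6 and 111 FPKM in imatinib 6 h libraries. The JQ1 libraries thus lay below the imatinib libraries at 6 h and above them at 24 h, with no overlap at either time. NDC80, a kinetochore protein, had 16.6 ± 0.975 FPKM with JQ1 and 5.99 ± 0.322 FPKM with imatinib at 24 h, and 21.0 ± 1.45 FPKM with JQ1 and 62.3 ± 6.69 FPKM with imatinib at 6 h. The change in its difference was 2.85 ± 0.24 (limma adjusted p = 1.14e-07). CDCA3 (2.57), SPC25 (2.56) and DLGAP5 (2.55) had changes of similar size, and all 3 act in mitosis. Replication genes changed upward in 31 of 38, and in 18, 18 and 19 under ratio, total and MIR1244-free rescaling. Their median at 6 h was -0.35, near the -0.30 of all tested genes, with 7 of 38 above 0.

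**Figure D4:**
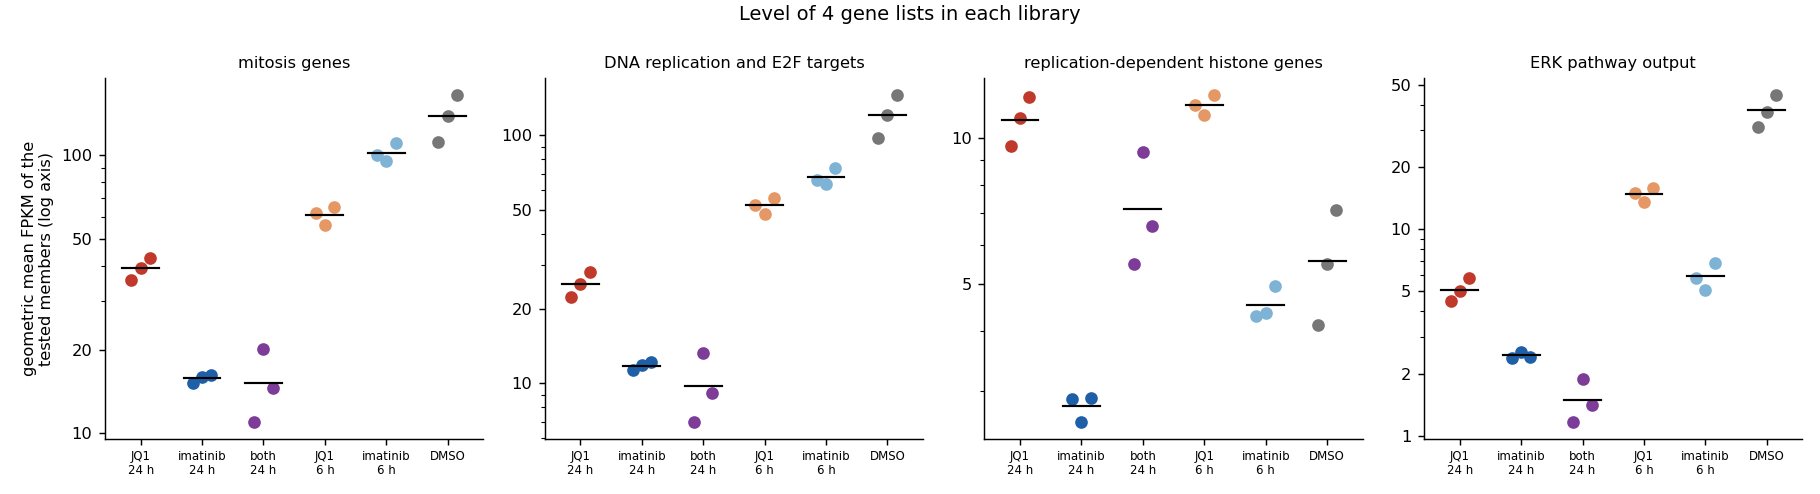
Geometric mean FPKM, on a log axis, of the tested members of 4 gene lists in each library of the 6 groups. For mitosis and replication genes the JQ1 libraries lay below the imatinib libraries at 6 h and above them at 24 h, whereas for histone genes they lay above them at both times. At 6 h the median difference of replication genes (-0.35) was near that of all tested genes (-0.30).

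The histone list had a median of 1.32 at 6 h beside 1.51 at 24 h. Of its 27 members 2, HIST1H1C and HIST1H2AG, changed between the times, a share near the 7.72% of all tested genes that changed upward. HIST1H2BD had 56.7 ± 4.39 FPKM with JQ1 and 11.2 ± 1.27 FPKM with imatinib at 6 h, close to its 24 h levels. HEXIM1 also differed by like amounts, 1.39 at 6 h and 1.41 at 24 h.

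MXD3 had the largest upward change among the named genes. It averaged 24.8 ± 3.42 FPKM with JQ1 and 8.06 ± 0.879 FPKM with imatinib at 24 h, and 20.0 ± 1.88 FPKM with JQ1 and 61.9 ± 4.63 FPKM with imatinib at 6 h, a change of 3.09 ± 0.29 (limma adjusted p = 3.75e-07). BMF, a death gene of the BCL2 family that FOXO factors induce, had a change of 3.06 ± 0.25 (limma adjusted p = 1.14e-07). Its levels were 17.7 ± 1.99 FPKM with JQ1 and 32.2 ± 1.23 FPKM with imatinib at 24 h, and 0.973 ± 0.0841 FPKM with JQ1 and 28.3 ± 2.05 FPKM with imatinib at 6 h. The DMSO level was 5.72 ± 1.15 FPKM, between the JQ1 levels of the 2 times. The difference of -0.84 at 24 h was not called on the deposited scale and was called (-1.23) with libraries scaled to one total. Of the 23 FOXO targets 5 changed upward (BMF, KLHL24, CCNG2, ULK1 and PNRC1) and 0 downward, and 3 upward and 1 downward under ratio rescaling. The share over all tested genes was 7.72% upward and 1.5% downward, and under ratio rescaling 325 and 502 of 12771 genes.

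Of the 17 ERK output genes, 5 changed downward (DUSP6, CCND1, SPRY2, SPRY4 and DUSP5) and 2 upward (TFAP4, 1.43, and ETV4, 1.14). The share over all tested genes was 1.5% downward and 7.72% upward. DUSP6 had 130.3 ± 12.1 FPKM with JQ1 and 3.06 ± 0.872 FPKM with imatinib at 6 h, so that its difference of 5.03 at 6 h was 2.74 at 24 h, a change of -2.29 ± 0.26 (limma adjusted p = 3.49e-06). CCND1 had 23.2 ± 1.90 FPKM with JQ1 and 13.3 ± 1.38 FPKM with imatinib at 6 h, a difference of 0.76 beside -1.35 at 24 h. ETV5 differed by 3.55 at 6 h and 4.26 at 24 h, a change that was not called. CTGF, a matrix protein induced by YAP, had the largest downward change, -3.25 ± 0.24 (limma adjusted p = 4.21e-08). It averaged 3.56 ± 0.614 FPKM with JQ1 and 0.271 ± 0.0685 FPKM with imatinib at 24 h, and 90.5 ± 4.95 FPKM with JQ1 and 1.71 ± 0.442 FPKM with imatinib at 6 h, when JQ1 cells were also above DMSO (19.8 ± 4.84 FPKM). FRG2B, a member of a near-identical family whose copies share reads, changed by -2.19 and was under 1 FPKM on average in both groups at 24 h.

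**Figure D5:**
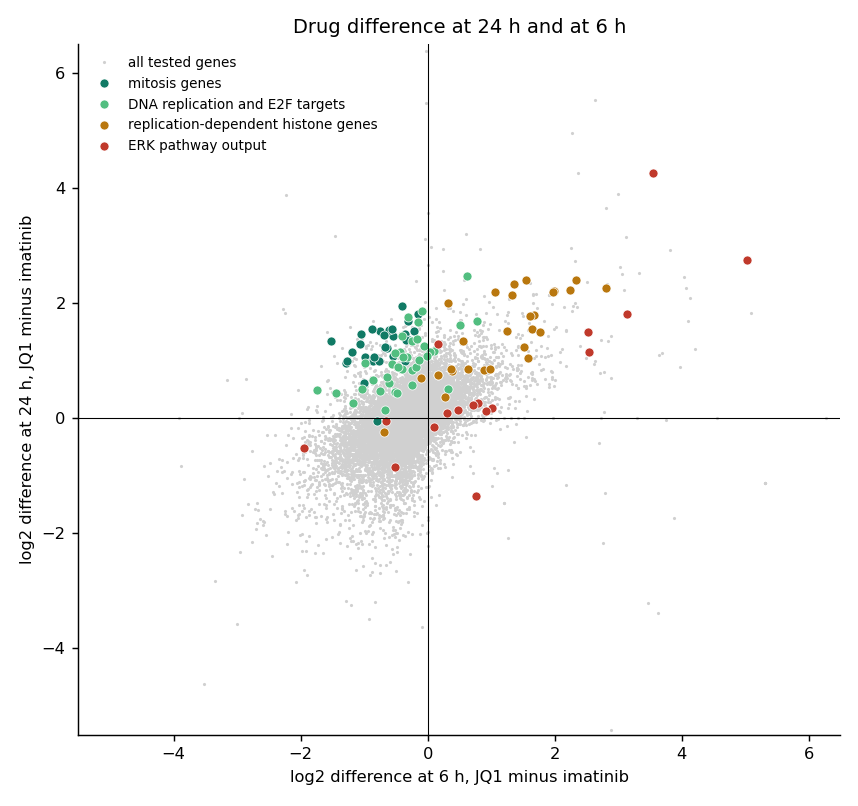
Log2 difference between JQ1 and imatinib cells at 24 h (vertical axis) against that at 6 h (horizontal axis) for all tested genes, with 4 gene lists in colour. Mitosis and replication genes lie mostly in the upper left, above 0 at 24 h and below 0 at 6 h, and histone genes in the upper right. Only 7 of 38 replication genes and 2949 of all 12771 tested genes lay above 0 at 6 h.

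The genes of largest difference held several beyond these groups. DHRS2, a short-chain dehydrogenase, had 75.3, 92.4 and 97.7 FPKM with JQ1, against 3.59, 3.98 and 3.45 FPKM with imatinib, a difference of 4.25 ± 0.21 (limma adjusted p = 9.42e-13). JQ1 cells were near the DMSO level of 66.4 ± 13.4 FPKM and imatinib cells far below it. DPYSL3, a protein of growing neurites, had 19.4, 22 and 24.5 FPKM with JQ1, against 0.529, 0.486 and 0.607 FPKM with imatinib, a difference of 3.89 ± 0.17. Here JQ1 cells were above DMSO (2.41 ± 0.222 FPKM) and imatinib cells below it. TNFRSF12A, the receptor of the cytokine TWEAK, averaged 17.3 ± 1.87 FPKM with JQ1 and 1.06 ± 0.0931 FPKM with imatinib, both below DMSO at 77.2 ± 21.2 FPKM. RASL11A, a small GTPase, averaged 17.1 ± 3.37 FPKM with JQ1 and 2.29 ± 0.299 FPKM with imatinib, both below DMSO at 268 ± 57.5 FPKM. Of 18 tested neuronal and synaptic genes, 5 were higher (DPYSL3, TUBB3, NPTX2, MAP2 and SERPINI1) and 0 were lower, with a median of 0.31. Of all tested genes 3.59% were higher. TUBB3, a neuronal beta-tubulin, had 68.7 ± 9.81 FPKM with JQ1 and 9.48 ± 0.370 FPKM with imatinib, both below DMSO at 187 ± 46.3 FPKM. MAP2 also averaged less with JQ1 than in DMSO (2.24 against 3.88 FPKM). NPTX2 averaged more with JQ1 than in DMSO (8.35 against 3.81 FPKM), as did DPYSL3 and SERPINI1.

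FABP4 and FABP5, which carry fatty acids in the cytoplasm, were also among the genes of largest difference. FABP4 had 169, 186 and 219 FPKM with JQ1, against 29.4, 33.5 and 31.9 FPKM with imatinib, a difference of 2.55 ± 0.18 (limma adjusted p = 2.65e-10). FABP5 had 376, 406 and 467 FPKM with JQ1, against 73.9, 83.7 and 76.5 FPKM with imatinib, a difference of 2.40 ± 0.18 (limma adjusted p = 8.69e-10). At 6 h they differed by only 0.24 and 0.57, and the change between the times was called for both (2.31 and 1.83). Both drug groups lay below DMSO at 24 h, where FABP4 averaged 1309 ± 263 FPKM and FABP5 4840 ± 1033 FPKM.

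Of 23 tested cholesterol synthesis genes 4 were higher (INSIG1, IDI1, MVD and EBP) and 0 were lower, with a median of 0.54. INSIG1, which retains the SREBP activator in the endoplasmic reticulum, had 299.6, 350.3 and 373 FPKM with JQ1, against 110.1, 125 and 110.4 FPKM with imatinib, a difference of 1.55 ± 0.19 (limma adjusted p = 7.23e-07). EBP, a sterol isomerase, lay at the threshold of 1, and its call ended without JQ1 replicate 2 or 3 or imatinib replicate 3, and under each rescaling. The CCAAT box was in 55.6% of the 18 promoter windows of this list, which include genes that were not called. Among the 4 higher members only MVD held it, and INSIG1, IDI1 and EBP did not. MVD, the mevalonate decarboxylase (28.6 ± 6.14 FPKM with JQ1, 10.3 ± 0.303 FPKM with imatinib), is shown as its example, at chr16:88663042-88663341 on the minus strand, with the motif on its other strand at position -122.
MVD: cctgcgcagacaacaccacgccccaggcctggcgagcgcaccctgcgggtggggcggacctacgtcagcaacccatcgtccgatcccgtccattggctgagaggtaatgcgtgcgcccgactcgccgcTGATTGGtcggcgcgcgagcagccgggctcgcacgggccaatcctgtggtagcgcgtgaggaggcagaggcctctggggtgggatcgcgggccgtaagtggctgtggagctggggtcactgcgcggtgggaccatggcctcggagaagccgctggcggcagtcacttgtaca

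Of 21 tested glycolysis genes 6 were higher and 1 was lower, with a median of 0.52. The higher count was 3 without JQ1 replicate 3 and 1 with libraries scaled to one total. GAPDH averaged 2614 ± 469.8 FPKM with JQ1 and 1134 ± 83.5 FPKM with imatinib, a difference of 1.19 that was 0.81, short of a call, with libraries scaled to one total. The glucose transporter SLC2A1 had 15.1 ± 3.04 FPKM with JQ1 and 6.17 ± 0.0653 FPKM with imatinib, a difference of 1.15 that was 0.84, also short of a call, on that scale. The lactate transporter SLC16A3 went the other way, at 1.92 ± 0.477 FPKM with JQ1 and 10.8 ± 0.393 FPKM with imatinib, a difference of -2.02 ± 0.17 (limma adjusted p = 3.63e-09). Of 50 oxidative phosphorylation subunits 0 were called in either direction, with a median of 0.36 that was -0.02 with libraries scaled to one total. Of 54 cytosolic ribosomal proteins 0 were called, with a median of 0.17, or -0.21 on that scale. Of 30 ribosome biogenesis and MYC target genes 3 were higher (ODC1, NOP56 and LYAR) and 0 were lower, and 0 were higher on that scale. The call of LYAR (1.03) ended without JQ1 replicate 3 (0.95) or imatinib replicate 1 (0.98).

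Stress lists held a few calls each, where 3.59% of all tested genes were higher and 4.88% were lower. Of 22 tested p53 targets 3 were higher (GADD45A, CDKN1A and PMAIP1) and 0 were lower. Of 20 tested genes of the ATF4 and amino acid response 3 were higher (MTHFD2, ASNS and SLC7A5) and 1 was lower, NUPR1, a stress-induced chromatin protein. NUPR1 had 7.99, 10.8 and 12.3 FPKM with JQ1, against 79.7, 79.0 and 80.5 FPKM with imatinib, a difference of -2.85 ± 0.20 (limma adjusted p = 3.98e-10). SLC7A5, an amino acid transporter, differed by 1.07, and by 0.99 without JQ1 replicate 3 and 0.79 with libraries scaled to one total, both short of a call. ASNS, asparagine synthetase, was higher, at 91.4 ± 10.6 FPKM with JQ1 and 33.3 ± 1.35 FPKM with imatinib, both below DMSO at 210 ± 37.4 FPKM. MTHFD2 and SLC7A5 also averaged less with JQ1 (52.6 and 9.84 FPKM) than in DMSO (289 and 83.2 FPKM). Of 22 tested heat shock proteins and cochaperones, HSP90AA1 was higher (1.17, and 0.79 with libraries scaled to one total, no call) and HSPB8 was lower (-1.72). Of 7 NF-kB and cytokine genes and 32 autophagy and lysosome genes 0 were called, with medians of -0.11 and 0.05.

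The lower genes of largest difference included cell surface, secreted, matrix and interferon-induced genes. RTP4, a chaperone of receptors that interferon induces, had 0.732, 0.788 and 1.31 FPKM with JQ1, against 19.3, 23.6 and 23.4 FPKM with imatinib, a difference of -3.58 ± 0.16 (limma adjusted p = 4.25e-13). Of 27 tested interferon response genes 1 was higher and 6 were lower (RTP4, PARP9, IFIT2, IFIT3, IFI35 and IFIH1), with a median of -0.26. With libraries scaled to one total 10 were lower, and 8 without the MIR1244 rows in that total. The share of all tested genes that were lower was 4.88% on the deposited scale. On the 2 rescalings it was 1584 and 1124 of 12771. IFIT3 averaged 3.53 ± 0.713 FPKM with JQ1 and 13.1 ± 0.176 FPKM with imatinib, both below DMSO at 75.2 ± 18.2 FPKM. CXCL10, a chemokine, was the higher member, at 2.86 ± 0.245 FPKM with JQ1 and 0.120 ± 0.0432 FPKM with imatinib. PARP10, an ADP-ribosyltransferase, fell to 1.77 ± 0.303 FPKM with JQ1, against 16.2 ± 0.303 FPKM with imatinib.

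CD24, a sialylated surface glycoprotein, had 1.67, 1.81 and 2.82 FPKM with JQ1, against 30.4, 36.4 and 34.0 FPKM with imatinib, a difference of -3.50 ± 0.16 (limma adjusted p = 6.43e-13). Imatinib cells lay above DMSO (4.95 ± 0.767 FPKM) and JQ1 cells below it, and cells given both drugs had 4.12 ± 0.917 FPKM. MB, myoglobin, followed the same order by group mean, with 0.178, 0.125 and 0.570 FPKM with JQ1, against 9.91, 10.9 and 11.2 FPKM with imatinib, and 0.762 ± 0.379 FPKM in DMSO. Its JQ1 and DMSO libraries overlapped at these low levels (0.330 to 1.04 FPKM in DMSO), and the difference between them was not called. With both drugs MB was at 0.203 ± 0.0448 FPKM. LEFTY2, a secreted inhibitor of NODAL, had 1.31 ± 0.167 FPKM with JQ1, 19.8 ± 1.17 FPKM with imatinib and 6.73 ± 1.59 FPKM in DMSO. GPR56, an adhesion receptor, had 1.01 ± 0.281 FPKM with JQ1 and 18 ± 0.221 FPKM with imatinib. For these 4 genes the difference had grown since 6 h, by -2.58, -2.36, -1.89 and -2.04 in the order named.

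XCL1, a chemokine, was abundant with 60.5, 70.9 and 90.2 FPKM with JQ1, against 452, 508 and 476 FPKM with imatinib, a difference of -2.70 ± 0.19 (limma adjusted p = 3.62e-10). Its near-identical copy XCL2 shares reads with it, so the pair cannot be told apart. IGFBP5, which binds insulin-like growth factors, averaged 2.29 ± 0.361 FPKM with JQ1 and 19.9 ± 1.31 FPKM with imatinib. CITED1, a transcriptional coactivator, averaged 1.45 ± 0.311 FPKM with JQ1 and 15.1 ± 1.12 FPKM with imatinib. APOBEC2, a muscle member of the deaminase family, averaged 1.09 ± 0.195 FPKM with JQ1 and 13.8 ± 0.516 FPKM with imatinib.

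Of 28 tested extracellular matrix genes 0 were higher and 3 were lower (COL12A1, TIMP2 and COL5A2), with a median of -0.41. With libraries scaled to one total 9 were lower, but only 4 without the MIR1244 rows in that total. COL12A1, a collagen that decorates fibrils, had 5.72, 6.28 and 7.52 FPKM with JQ1, against 46.7, 51.2 and 47.7 FPKM with imatinib, a difference of -2.73 ± 0.17 (limma adjusted p = 4.82e-11). Outside the list, ABI3BP, a matrix protein, averaged 1.63 ± 0.233 FPKM with JQ1 and 17.9 ± 1.75 FPKM with imatinib, and LOXL4, a lysyl oxidase that cross-links collagen, 1.15 ± 0.200 and 12.4 ± 0.344 FPKM in that order of drugs. Of 16 tested smooth muscle and contractile genes FLNA was higher (1.51) and MYLK, the myosin light chain kinase, was lower (-1.31). CTGF was the 1 call among 13 YAP and TEAD targets, and KLF10 and KLF11 (-1.18) were the 2 lower among 11 KLF factors, with 0 higher. With libraries scaled to one total, 4 of the smooth muscle genes and 3 of the YAP and TEAD targets were lower. The share over all tested genes was 3.59% higher and 4.88% lower on the deposited scale. Scaled to one total, 1584 of all 12771 tested genes were lower. The lower genes numbered 2 each among ERK output (of 17 tested), the MYC network (of 12), NF-kB and cytokine (of 7) and ATF4 genes (of 20). They also numbered 2 each among heat shock (of 22) and autophagy and lysosome genes (of 32). In the cholesterol (of 23), neuronal (of 18), and BET protein and P-TEFb (of 18) lists 1 each was lower.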

How the data were processed

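RNA was measured in 18 libraries of GIST-T1 cells in 6 groups of 3, at 500 nM of a drug. RNA was taken, per the labels' protocols, by cell count, ERCC spike-in transcripts were added, and stranded poly(A) libraries were sequenced. The tools named in the submitters' processing notes, without versions, are STAR and Cufflinks, and the assembly is hg19. The authors deposited 1 table of FPKM values. The sources used here do not give how it was scaled. The ERCC rows had sums of 6505 to 6948 per library and library medians within -0.02 and 0.04 log2 of their mean over the 24 spike-ins with a mean of at least 5 FPKM, and the table was read as spike-in scaled on that ground. With no read counts the depth of a library is unknown, and the spread within groups sets the precision. Of 23713 rows, 92 were spike-ins. 28 gene names had been turned into dates (20 of them tested), and every column was matched to a group. One JQ1 24 h column has the number 1 where the titles have 0, 2 and 3, so it was matched to its group only. It is called the unnumbered library.

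A gene was tested if 3 or more libraries had 1 FPKM or more (12771 genes). With limma 3.58.1 in R 4.3.3, log2(FPKM + 1) was fitted over all groups together, allowing the variance a trend with level (12 residual degrees of freedom). The fit was checked on simulated data, with independent noise around each gene's mean over all libraries and changes added to some genes. That simulation held no shift in level between libraries and no shared replicate effect, so it cannot speak to these. Tests were two-sided with Benjamini-Hochberg adjustment over all tested genes within a comparison. Calls needed an adjusted p under 0.05 and a log2 difference of 1 or more in size. The added 1 FPKM understates the change of low genes, and errors of log2 differences are SE. Named genes were 12 fixed ones, the 14 higher and 14 lower calls of largest size with groups that did not overlap and a mean of 5 FPKM or more in the higher group, up to 4 calls each way from each of 33 lists, and the 6 largest changes each way between 6 h and 24 h. Small RNA, clone, LOC and date names were passed over. A few further members are named as counted members of a list, chosen after their values were seen. The comparison, lists and fixed genes were chosen with earlier results of these data known. Motifs were searched in RefSeq promoter windows (GRCh38.p14), matched by symbol. Alternatives were the pseudocount, the filter, 3 rescalings, the replicate block, library weights, the groups fitted, the fold threshold and leaving out each library.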

Additional observations from a re-analysis of the deposited data

Results flagged for a closer look

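Of the 107 named genes, 48 had a difference between JQ1 and imatinib cells at 24 h that differed from the one at 6 h (limma, adjusted p below 0.05 and a change of at least 1 on the log2 scale, 24 h minus 6 h). Groups of 3 libraries were too small to test single libraries as outliers. Upward changes (27 genes) were 3.09 for MXD3, 3.06 for BMF, 2.85 for NDC80, 2.57 for CDCA3, 2.56 for SPC25, 2.55 for DLGAP5, 2.35 for AURKB, 2.11 for BIRC5, 2.07 for TYMS, 1.99 for CDK1, 1.96 for PCNA, 1.96 for CDC20 and 1.86 for RRM2, most of them cell cycle genes. The other upward changes were 2.31 for FABP4, 1.89 for DHRS2, 1.83 for FABP5, 1.36 for FLNA, 1.19 for CCNE2, 1.19 for ALDOA, 1.17 for PLAT, 1.16 for CDKN2D, 1.14 for HIST1H1C, 1.06 for ODC1, 1.06 for SLC2A1, 1.04 for EBP, 1.04 for GAPDH and 1.03 for TPI1.

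Downward changes (21 genes) were -3.25 for CTGF, -2.58 for CD24, -2.53 for ABI3BP, -2.36 for MB, -2.29 for DUSP6, -2.19 for FRG2B, -2.14 for LOXL4, -2.11 for CCND1, -2.04 for EGR1, -2.04 for GPR56, -1.95 for XCL1, -1.89 for LEFTY2, -1.81 for COL12A1, -1.79 for IGFBP5, -1.58 for RASL11A, -1.51 for PARP10, -1.35 for PARP9, -1.33 for SPRY4, -1.18 for IFIT3, -1.05 for KLF10 and -1.03 for DUSP5. With libraries scaled by the median of gene ratios, 16 of the 27 upward and 21 of the 21 downward changes were still called, and with libraries scaled to one total 16 and 20, with 0 called the other way.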

How the results depend on the processing

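Counts of genes higher and lower with JQ1 at 24 h, and above and below 0 in the change from 6 h, are given in that order. They were 727, 1201, 1504 and 413 with 0.1 FPKM added before the logarithm, 775, 1304, 1593 and 460 with 0.01 FPKM added, and 2317, 2421, 2984 and 623 with no fold threshold. A mean of at least 5 FPKM left 360 lower and 125 below 0, and array weights gave 303 below 0. Scaling by the median of gene ratios gave 325 above and 502 below 0. Scaling to one total gave 240, 1584, 314 and 650 with a median difference of -0.29, and without the MIR1244 rows in that total 1124 lower, 372 above and 533 below 0 with a median of -0.145. The cause of these shifts was not tested. Other counts stayed within 1.5 times. With 1 library left out, genes higher ranged from 365 to 579, genes lower from 551 to 761, the median from -0.035 to 0.111, genes above 0 from 765 to 1274, genes below 0 from 159 to 246, and the ratio of summed FPKM from 1.245 to 1.361. The same numbers 2 and 3 occur in both groups, but the labels do not say that they mark a shared batch, and same-numbered libraries had deviations correlated at 0.127 and -0.0531. With the replicate block, 477 genes were higher, 618 lower, 1027 above and 185 below 0, with a median of 0.052, and the calls of all 107 named genes at 24 h held. Of these calls, scaling to one total ended 13 and made 3, and leaving out 1 library ended 6 (LYAR, EBP, JUN, PLAT, ALDOA and SLC7A5) and made 1 (MYC), with 0 reversed under any alternative run. Without 1 library, the list counts of cyclins (5 higher) and glycolysis genes (3 higher) moved by more than 1 gene. Another 10 moves, in 7 lists, were by 1 gene. Only counts that changed more than 1.5 times or rose from 0 are included here. Smaller moves and falls to 0, such as that with the call of PLAT, were not counted. Genes near 1 FPKM are limited by an unknown depth.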
